A study of Mus musculus with 18 samples.

Results

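The cytosolic ribosomal protein genes of the mouse colon were described in 18 RNA-seq libraries of a study on Olfr78, an olfactory receptor of the gut that responds to short-chain fatty acids. A gene was a member if its name began with Rpl or Rps followed by digits and at most a short suffix, or was Rplp0, Rplp1, Rplp2 or Rpsa, and names with -ps, which mark pseudogenes, were left out, while 5 copies named as genes but annotated as processed pseudogenes (Rps3a2, Rps3a3, Rpl6l, Rps12l1 and Rps4l) stayed in. This gave 88 members of 52636 genes, 52 of the large and 36 of the small ribosomal subunit, and the rule used names only. Rpl35a was set against the other members in every comparison.

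Every library came from mouse colon. In the Olfr78-GFP line a GFP-IRES-tauLacZ cassette replaces the exon that codes for Olfr78, so that homozygous mice lack the receptor (KO), heterozygous mice (HE) keep 1 copy of it, and cells that use the gene carry GFP. Crypts of mice aged 4 to 7 months gave 2 HE pools and 2 KO pools of sorted Epcam+ve/GFP+ve cells, each of 2 mice, beside 2 samples of Epcam+ve/GFP-ve cells from a single WT mouse (Epcam WT samples). Whole crypts came from 2 WT and 5 KO mice of this line, on a B6;129P2 background, and from 3 control mice (eCtrl) and 2 epithelial knockout mice (eKO) of the Vil1Cre/+-Olfr78fx line, with 1 mouse per library by the titles. In that line Cre is driven by the Villin promoter, which is active in the intestinal epithelium, and LoxP sites flank the coding exon. By their genotype labels eCtrl mice 1 and 3 were HE/WT and eCtrl mouse 2 was WT/HO, while eKO mouse 1 was HE/HO and eKO mouse 2 was WT/HO. The last label is that of a control, so this library is written below as the library labelled eKO crypts 2, and results are also given without it.

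The cytosolic ribosome joins a small subunit, which reads the mRNA, to a large subunit, which forms the peptide bonds, and each is a particle of ribosomal RNA and many small, mostly basic proteins. The mRNAs of these proteins are among the most abundant of any cell. They typically start with a C followed by a run of pyrimidines, the 5′ terminal oligopyrimidine (TOP) motif, through which growth signals control their translation, and growing and dividing cells such as those at the base of the colon crypt make many ribosomes. Rpl35a encodes a small protein of the large subunit, and its human counterpart is one of the genes that are mutated in the red cell disorder Diamond-Blackfan anemia.

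The annotated start of the transcript is shown for 6 members, to give windows with and without such a run of pyrimidines near it. Each line gives 10 bases before and 20 from the RefSeq transcript start of assembly GRCm38.p6, 5′ to 3′ on the gene's own strand, and capitals mark a C followed by at least 4 pyrimidines that begins within 5 bases of the start. Rpl35a, at chr16:33056472-33056501 on the plus strand, Rps6, at chr4:86857348-86857377 on the minus strand, Rps27l, at chr9:66946076-66946105 on the plus strand, and Rpl22l1, at chr3:28805498-28805527 on the plus strand, held such a run. Rplp0, at chr5:115559457-115559486 on the plus strand, and Rpl13, at chr8:123102340-123102369 on the plus strand, had none that begins within 5 bases of the start.
Rpl35a: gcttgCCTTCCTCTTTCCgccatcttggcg
Rps6: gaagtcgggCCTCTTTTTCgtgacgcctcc
Rps27l: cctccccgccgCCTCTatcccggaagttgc
Rpl22l1: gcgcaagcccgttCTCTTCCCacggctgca
Rplp0: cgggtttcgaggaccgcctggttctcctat
Rpl13: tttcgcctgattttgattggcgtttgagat

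A sequence was given for 63 of the 88 members, and 29 of them (46.0%) held such a run, beside 5718 of 27025 genes with a sequence (21.2%). For 13 members (20.6%) the run began exactly at the annotated start, beside 813 of all genes (3.01%). Of 68 mitochondrial ribosomal protein genes 17 held a run and 0 had it exactly at the start. Only the transcript strand was searched, and an annotated start can lie some bases from the start used in these cells.

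RNA was read by sequencing, and the authors deposited a number per gene and library scaled to a library total of 20000000 and called CP20M. Whole reads could be recovered from these values. Reads on genes were 6175298 to 10995300 in the crypt libraries, 1499833 to 2237474 in 5 of the 6 libraries of sorted cells, and 532704 in the remaining one, KO pool 1, where 1 read was worth 37.5 CP20M and small differences were not detectable. Olfr78 itself stood at 88 and 111 CP20M in WT crypts and 7 to 42 in KO crypts, at 4822 and 4401 in HE pools and 977 and 837 in KO pools, and at 61 to 124 in eCtrl crypts. It was 21 in eKO crypts 1 and 73 in the library labelled eKO crypts 2, which lay within the range of the eCtrl crypts. The labels call the Epcam WT samples enteroendocrine too, but the summed level of 4 enteroendocrine markers (Chga, Chgb, Neurod1 and Tph1) was 12514 and 12872 CP20M there, within the 5716 to 14352 of the crypts, and 843721 and 1099468 in HE pools. All 4 epithelial markers were detected in every group. Of 4 leukocyte markers the sum was 190 to 591 CP20M in crypts and at most 63 in sorted cells.

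Of the 88 members 85 had at least 40 CP20M in 2 libraries of some comparison. The other 3 were the paralogs Rpl3l, known for its place in striated muscle, and Rpl10l and Rpl39l, known from the testis. Rpl10l had 3 reads over all 18 libraries, Rpl3l 10 reads and at most 3 in a library, and Rpl39l at most 5 reads in a library. Per kilobase of transcript, the highest mean levels over the 12 crypt libraries were those of Rps24, a small subunit protein (16763 CP20M per kb), Rplp1, a protein of the acidic stalk of the large subunit that recruits elongation factors (14033), and Rpl41, among the smallest proteins known (13971). Beside the 88 members, 276 rows were named as ribosomal protein pseudogenes, and Rps3a2, Rps3a3, Rpl6l and Rps12l1 are themselves such copies. Members' counts can therefore depend on how reads that fit several places were handled, which is not given in the sources used here. How many members this touches was not tested. The strand setting of the counting is not given either. The span of 24 members held a small nucleolar RNA gene on the same strand, and 25 had another gene on the other strand.

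The members together took 2.13% and 2.18% of the reads on genes in WT crypts and 1.54% to 1.75% in KO crypts (1.63% ± 0.0840, SD, n = 5). Their share was 2.31% and 2.55% in Epcam WT samples, 1.25% and 1.11% in HE pools, and 0.906% (95% Wilson interval 0.881 to 0.932) and 1.56% in KO pools. Shares were 2.74%, 2.21% and 2.28% in eCtrl crypts, 2.86% in eKO crypts 1 and 1.77% in the library labelled eKO crypts 2. The 5 KO crypts thus lay below both WT crypts, the 4 GFP+ve pools lay below both Epcam WT samples, and eKO and eCtrl crypts overlapped. The interval covers counting error only. In bulk libraries such as these, fewer cells of a type and less RNA per cell cannot be told apart. Large and small subunit genes followed each other, with 1.30% ± 0.0177 against 0.856% ± 0.0172 in WT crypts and 0.724% ± 0.0551 against 0.458% ± 0.0478 in HE pools (SD, n = 2 each).

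**Figure D1:**
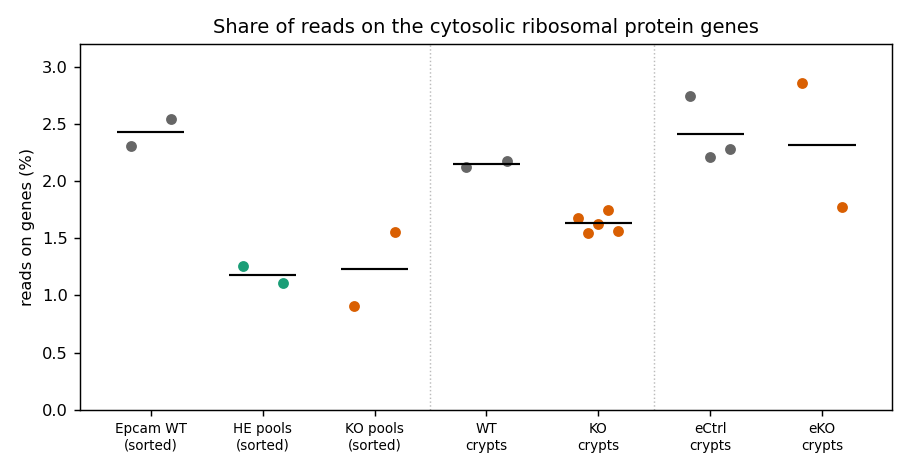
Share of the reads on genes that fell on the 88 cytosolic ribosomal protein genes (vertical axis, percent), with 1 point per library and a line at the mean of each group. The 2 HE pools (1.25% and 1.11%) sit below the Epcam WT samples (2.31% and 2.55%), the 5 KO crypts (1.54% to 1.75%) sit below the 2 WT crypts, and the 2 libraries labelled eKO lie on either side of the eCtrl crypts.

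HE pools were compared with Epcam WT samples to ask what sets the Olfr78-expressing cells apart from the epithelium around them. Nearly all members were lower in the HE pools. Of 85 members tested, 84 were lower and 1 was higher, with a median log2 fold change of -1.03 beside -0.05 over all 16355 genes tested. Values were compared by limma on log2(CP20M + 10), which understates the change of low genes, with Benjamini-Hochberg adjustment over all genes tested. At an adjusted p under 0.05, 75 members fell, where 11.3% of all genes did, and no member rose, where 12.5% of all genes did (0 members also with DESeq2, and 1, Rps3a3, with edgeR). The libraries of the 2 groups did not overlap, with the HE pools lower, for 81 members, beside 33.1% of all genes. At the thresholds of the study's methods, an adjusted p under 0.001 and a log2 fold change beyond 2, no member was called by limma, edgeR or DESeq2, beside 0.171% of all genes that fell. The 2 Epcam WT samples came from 1 mouse and the pools from others, so the spread between the WT samples holds no difference between mice. The p-values of this comparison therefore do not measure the spread between WT mice.

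The stalk proteins of the large subunit all fell. Rplp1 stood at 9109 and 9277 CP20M in Epcam WT samples and at 3475 and 2801 in HE pools, a log2 fold change of -1.56 (SE 0.18, adjusted p = 0.000941 by limma). Rplp0, the scaffold of the stalk, stood at 12774 and 12955 against 5685 and 4214, a log2 fold change of -1.39 (SE 0.19, adjusted p = 0.00224 by limma). Both pools lay far below both samples in each case. Rplp2, the partner of Rplp1, fell by 1.12 on the log2 scale, Rpl17 by 1.30 and Rpsa, a small subunit protein also known as a laminin receptor, by 0.93. Among other large subunit members Rpl32 went from 9252 and 11845 to 4223 and 3121 (log2 fold change -1.53, SE 0.21). Of the 49 large subunit members tested, 44 fell, with a median of -0.999.

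The largest fold among all members was that of Rps27l, a paralog of Rps27 that p53 is known to induce. It stood at 1663 and 1942 CP20M in Epcam WT samples and at 484 and 507 in HE pools, a log2 fold change of -1.84 (SE 0.23, adjusted p = 0.00130 by limma). Its partner Rps27 went from 3790 and 4490 to 2935 and 2894, without overlap, but with a log2 fold change of -0.50 it was not called (adjusted p = 0.0764 by limma). Rps7, a small subunit protein, fell by 1.40 on the log2 scale, from 6499 and 7623 to 2854 and 2494. Of the 36 small subunit members 31 fell, with a median of -1.06.

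Members that were not called were, beside Rps27, Rpl22l1, Rpl27, Rpl41, Rpl7l1, Rps4l and the copies Rpl6l, Rps12l1, Rps3a2 and Rps3a3. Rps3a3 alone was higher in the HE pools, at 817 and 934 against 358 and 607 (log2 fold change 0.89, adjusted p = 0.0737 by limma). Its parent Rps3a1 went the other way, from 6141 and 7027 to 2808 and 3308. Rps3a3 lies within the span of Pde4d on the same strand, and whether reads of Pde4d were counted on it was not tested. Rpl35a was close to the middle of the members. It stood at 2879 and 2517 CP20M in Epcam WT samples and 1347 and 1401 in HE pools, without overlap, and fell by 0.97 on the log2 scale (SE 0.19, adjusted p = 0.00896 by limma), with 54 of 85 members at or below its value. Without Epcam WT sample 2 the members called were 41, and without Epcam WT sample 1 Rpl35a was no longer called (log2 fold change -0.87, adjusted p = 0.0801, limma). Without a trend of the spread 5 members were called, namely Rpl34, Rplp1, Rps13, Rps27l and Rps7, and Rpl35a was not (adjusted p = 0.0884 by limma).

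Lists of genes that work beside the ribosomal proteins were also counted, where 11.3% of all genes fell and 12.5% rose. In the lists of ribosome biogenesis, RNA polymerase I, growth control and chaperones few genes were called. These are named singly and not read as a change of their list. Of 20 translation factors and related genes with TOP mRNAs 12 fell and 0 rose, with a median of -0.71, among them Rack1, which sits on the small subunit (log2 fold change -1.17), the elongation factor subunits Eef1b2 (-1.17) and Eef1g (-0.99), and the ribosome assembly factor Npm1 (-1.03). Of 77 mitochondrial ribosomal protein genes 15 fell and 0 rose (median -0.68), and of 30 ribosome biogenesis genes 5 fell and 0 rose (median -0.57), among them nucleolin, Ncl (-0.82), and Nop56 (-0.84), a core protein of the box C/D particles. Of 11 RNA polymerase I genes (median -0.32) 1 fell, Taf1d (-1.29). Of 14 genes of growth control (median -0.24) Myc, which drives ribosome synthesis, fell by 1.93 on the log2 scale (adjusted p = 0.00285 by limma), Larp4 by 0.70 and Eif4ebp2 by 0.74, and Rheb, an activator of mTOR, rose by 1.31. Of 15 genes of ribosomal protein chaperones and surveillance (median 0.13) Nap1l1 fell (-0.79) and Mdm2 rose (0.81).

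Markers of other cells moved with this comparison. All 7 proliferation markers fell, with summed levels of 25716 and 26749 CP20M in Epcam WT samples and 3405 to 7460 in HE pools, 2 of 4 stem cell markers (Smoc2 and Axin2) and 3 of 4 goblet cell markers fell, and all 4 enteroendocrine markers rose. Of the colonocyte markers Krt20 rose by 2.76 and Car4, Aqp8 and Slc26a3 fell, with summed levels of 9669 to 12784 CP20M in Epcam WT samples and 27688 to 32699 in HE pools, and of the epithelial markers Cdh1 fell (-0.76). Of the nuclear RNAs Malat1 and Neat1 rose, by 1.49 and 0.90 on the log2 scale. Of the mesenchymal markers Vim rose by 3.72 and Col1a1 fell by 3.61. The mitochondrially encoded genes took 13.9% and 14.8% of reads in Epcam WT samples and 11.1% and 9.93% in HE pools. None of these markers was at 0 in both libraries of a group, and their part in the result was not tested.

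**Figure D2:**
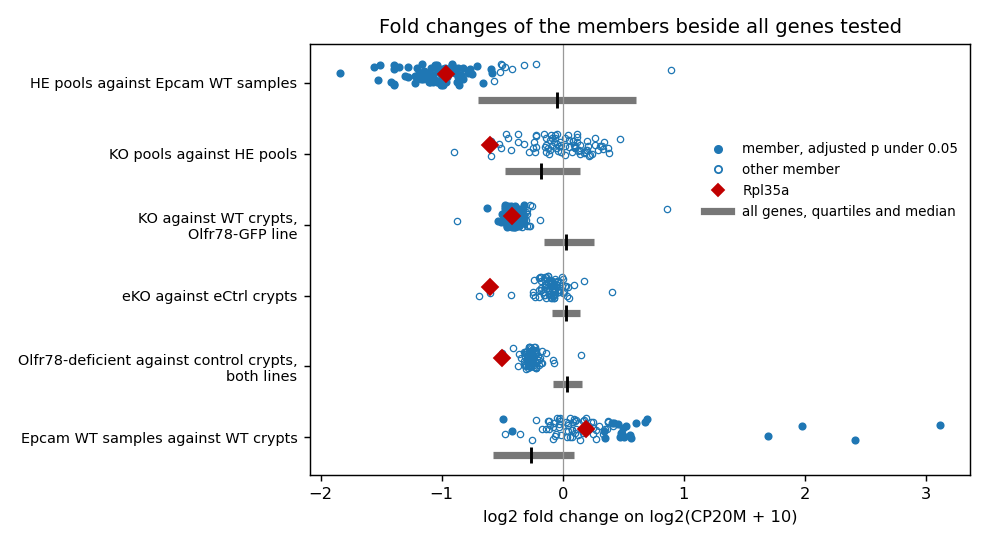
Log2 fold change on log2(CP20M + 10) (horizontal axis) of each member in 6 comparisons, filled where the adjusted p was under 0.05, with Rpl35a as a red diamond and, below each row, the quartiles and the median of all genes tested as a bar. Members lie around -1.03 for HE pools against Epcam WT samples and around -0.40 for KO against WT crypts, and Rpl35a is apart from the other members in the rows of the eKO crypts and of both lines.

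KO pools were compared with HE pools, both GFP+ve, to ask what the loss of Olfr78 changes in these cells. No member was called. Of 83 members above 40 CP20M in all 4 pools, 40 were higher and 43 lower, with a median of -0.01 beside -0.18 over all 11892 genes. At an adjusted p under 0.05 limma called 0 members and 0% of all genes in either direction, as edgeR and DESeq2 called 0 members, and 0 members and 503 genes had an unadjusted p under 0.05. By the criterion of the study's methods, a difference of the means over 2 times the average SD and a fold over 1.5, 0 members passed, beside 3.23% of all genes that were higher and 9.98% that were lower. Median-of-ratios rescaling moved the median of the members to 0.17 and that of all genes to 0.00, so the members' direction depended on the scale.

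The 2 KO pools went opposite ways. The median member was 1.27 below the WT crypts in KO pool 1 and 0.47 below in KO pool 2 (log2 scale), with the HE pools between them at 0.81 and 0.94 below. Without the shallow KO pool 1 the median log2 fold change was 0.40, and without KO pool 2 it was -0.34 with 1 member called, Rpl36a. The members with the smallest p-values were Rpl18, at 3042 and 2603 CP20M in KO pools and 2083 and 1961 in HE pools (log2 fold change 0.48), and Rps3a3 (-0.90) and Rps27 (-0.53), each with an adjusted p of 0.931 by limma. Rpl18 was higher in both KO pools, while for Rps3a3 and Rps27 the groups overlapped. Furthest above the median of the members were, beside Rpl18, Rpl32 (0.38) and Rps27l (0.37). Rpl13, a reference gene of the study's PCR, stood at 4318 and 4137 in KO pools and 3556 and 3481 in HE pools (log2 fold change 0.26, adjusted p = 0.931 by limma). Mitochondrially encoded genes took 12.9% of reads in KO pool 1 and 20.5% in KO pool 2, and the enteroendocrine markers summed to 352352 to 593577 CP20M in the KO pools, below both HE pools. Goblet cell markers had a summed level of 56844 CP20M in the first of the KO pools and 309696 in the other, beside 136849 and 57794 in the HE pools. Their part in these values was not tested.

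Rpl35a lay far apart in the 2 KO pools. It had 13 reads in KO pool 1, which is 489 CP20M (95% exact Poisson interval 260 to 836), and 1651 CP20M in KO pool 2, against 1347 and 1401 in HE pools. The log2 fold change of -0.60 (SE 0.53, adjusted p = 0.931 by limma) became 0.26 without KO pool 1 and -1.47 without KO pool 2.

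KO crypts were compared with WT crypts of the same line to ask what the loss of the receptor in all cells changes in the epithelium. Here members fell together by a small amount. Of 85 members 84 were lower and 1 was higher, with a median log2 fold change of -0.40 beside 0.03 over all 15975 genes. By limma 65 members fell at an adjusted p under 0.05, where 2.18% of all genes did, and 0 rose, where 5.19% did, and edgeR and DESeq2 called 75 and 77 members, all lower. The 5 KO crypts lay below both WT crypts for 79 members, beside 13.1% of all genes. At the thresholds of the study's methods, an adjusted p of at most 0.2 and a fold over 1.5, 2 members were lower (Rps13 and Rps3a2), where 1.53% of all genes were, and 1 was higher (Rps4l), where 7.95% were. Each library's median over the members had an SD within a group of 0.08 on the log2 scale. The median shift was larger than this, but rested on 2 WT mice, and this SD does not give the spread of single members.

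With 2 WT mice, the calls needed both. Without WT crypts 1 or WT crypts 2, where only 1 WT library was left, most calls were lost, among the members and over all genes alike. The members' median stayed at -0.43 to -0.38 whichever library was left out. Without KO crypts 2 or KO crypts 3 the members called were 40 and 41, among 707 and 804 of all genes, beside 1177 genes in the main fit. With no filter on low values they were 37, among 587 genes, and without a trend of the spread 7, among 514.

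Both subunits took part, with 37 of 49 large and 28 of 36 small subunit members called. Rps13 fell by 0.62 on the log2 scale (SE 0.11, adjusted p = 0.0105 by limma), from 3689 and 3626 CP20M in WT crypts to 2732, 2358, 2100, 2608 and 2135 in KO crypts. No KO crypts library reached the WT crypts for this gene. Rpl17, Rpl21 and Rps9 fell by 0.46, 0.45 and 0.47, and Rpl15 (-0.19) and the copy Rpl6l (-0.25) changed least and were not called. Rplp0 stood at 13893 and 14405 in WT and between 10147 and 10958 in KO crypts, a log2 fold change of -0.41 (SE 0.084, adjusted p = 0.0169 by limma), and Rplp1 and Rpsa fell by 0.34 and 0.36. Rplp2 had a log2 fold change of -0.33 and was not called (adjusted p = 0.0578 by limma). Rpl13 stood at 6655 and 6434 in WT and at 5338, 4486, 4834, 5121 and 4708 in KO crypts, and fell by 0.42 on the log2 scale (SE 0.091, adjusted p = 0.0188 by limma).

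Rpl35a moved with the other members in this line. It stood at 2421 and 2286 CP20M in WT and at 1748, 1620, 1818, 1929 and 1687 in KO crypts, all below both WT crypts, and fell by 0.42 on the log2 scale (SE 0.093, adjusted p = 0.0209 by limma), with 35 of 85 members at or below its value. It was no longer called without either WT mouse (adjusted p = 0.185 and 0.172 by limma), with no filter (0.0525) and without a trend of the spread (0.0692).

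Of the 20 translation factors and related genes with TOP mRNAs 13 fell and 0 rose (median -0.35), among them Eef1b2 (-0.40), the initiation factor subunit Eif3f (-0.46), and Fau, whose product carries a ribosomal protein fused to a ubiquitin-like domain (-0.44). Over all genes 2.18% fell and 5.19% rose in this comparison. Of the 77 mitochondrial ribosomal protein genes 1 was called lower and 0 higher, no larger shares than those. Even so, 72 of them were lower and 5 higher (median -0.23). For 35 of them all KO crypts lay below both WT crypts, beside 13.1% of all genes. Of 30 ribosome biogenesis genes Rrs1 fell (-0.45) and Utp20 rose (0.44), with a median of -0.15, and none of 11 RNA polymerase I genes and of 15 genes of growth control was called. All 4 nuclear RNAs rose in KO crypts, by 1.70 for Meg3, 1.65 for Neat1, 0.87 for Malat1 and 0.54 for Kcnq1ot1 on the log2 scale. Of the stem cell markers Lgr5 fell (-0.76, adjusted p = 0.0195 by limma), and no proliferation, goblet cell or colonocyte marker was called. Leukocyte markers summed to 470 and 577 CP20M in WT and 190 to 418 in KO crypts, with none of the 4 at 0. The part of these genes in the members' values was not tested.

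**Figure D3:**
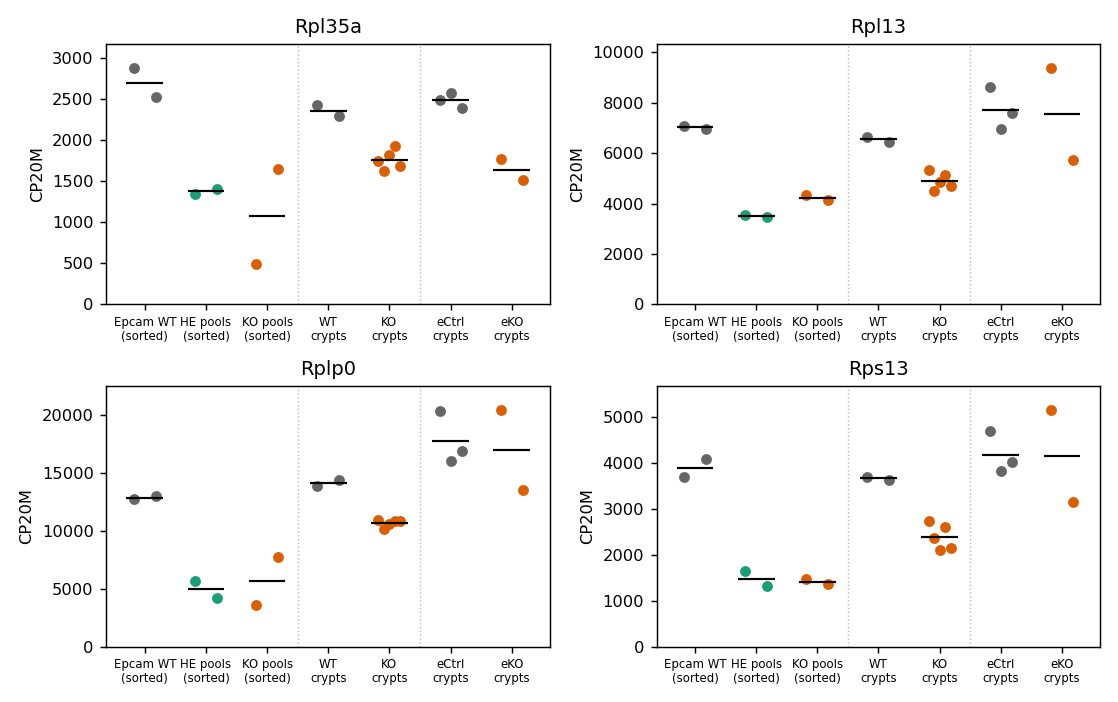
CP20M (vertical axis, linear, from 0) of Rpl35a, Rpl13, Rplp0 and Rps13 in every library, with 1 point per library and a line at the group mean. The 5 KO crypts lie below the 2 WT crypts in each panel, eKO crypts 1 lies above the eCtrl crypts for Rpl13, Rplp0 and Rps13, and both eKO libraries lie below the eCtrl crypts for Rpl35a.

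The eKO and eCtrl crypts addressed the loss of the receptor in the intestinal epithelium alone. No member passed the threshold here, and the 2 eKO libraries went opposite ways. Of 85 members 74 were lower and 11 higher, with a median log2 fold change of -0.10 beside 0.03 over all 15401 genes, and limma, edgeR and DESeq2 called 0 members (0% of all genes by limma). At an unadjusted p under 0.05 were 127 genes and 1 member, Rpl35a. The median was 0.25 without the library labelled eKO crypts 2 and -0.44 without eKO crypts 1, so its sign rested on single libraries. The 2 libraries numbered 1 were high in each group. Rplp0 stood at 20288, 16003 and 16865 CP20M in eCtrl crypts, at 20425 in eKO crypts 1 and at 13501 in the library labelled eKO crypts 2, and Rpl13 stood at 8629, 6939 and 7574 against 9388 and 5741. For both genes the groups overlapped.

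Rpl35a lay apart from most other members here, and had been singled out with earlier results known. It stood at 2491, 2565 and 2392 CP20M in eCtrl crypts and at 1763 in eKO crypts 1 and 1507 in the library labelled eKO crypts 2. With groups by title, it was the 1 member of 85 whose eKO libraries both lay below all eCtrl libraries. This is no larger a share than the 2.79% of all genes for which the same held. If the control's genotype label of the library labelled eKO crypts 2 is right, the lowest of these values is that of a control. The log2 fold change of Rpl35a was -0.60 (SE 0.14, unadjusted p = 0.00354, adjusted p = 1.00 by limma), and -0.49 without the library labelled eKO crypts 2. Over all alternatives its value lay between -0.72 and -0.49 and its adjusted p between 0.65 and 1.00. Rps4l (-0.69), which varied between mice as described below, and the copies Rps12l1 (-0.43) and Rps3a2 (0.40) also lay far from the median of the members.

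Both lines were then combined, with the line as a covariate, as 7 Olfr78-deficient and 5 control crypts. Of 85 members 84 were lower, with a median of -0.26 beside 0.03 over all 16447 genes. At an adjusted p under 0.05 limma and edgeR called 0 members (0% of all genes by limma) and DESeq2 called 1, Rpl35a, while 40 members and 1267 genes had an unadjusted p under 0.05. Without eKO crypts 1, the library with the highest share of ribosomal protein reads, 63 members were called, all lower, among 365 of all genes. The eKO library left in that fit is the one that carries the genotype label of a control. Without the library labelled eKO crypts 2 the members called were 0 and the median was -0.18.

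Rpl35a had the lowest fold change of all 85 members over both lines, -0.50 (SE 0.077, adjusted p = 0.135 by limma). By the titles, the 5 control crypts lay between 2286 and 2565 CP20M and the 7 deficient crypts between 1507 and 1929. No other member was without overlap in both lines, beside 0.395% of all genes. The lowest value, 1507, was that of the library labelled eKO crypts 2, which carries the genotype label of a control. If that label is right, control and deficient crypts overlapped. The gene was called by DESeq2 (-0.54, adjusted p = 4.7e-07) and by limma without eKO crypts 1 (-0.52, adjusted p = 0.022), a fit that keeps the library with the control's label. Over all alternatives its adjusted p ran up to 0.50. Rpl35a had been singled out with earlier results of these data known, so its p-values and lack of overlap here are no independent support. Without the library labelled eKO crypts 2 its value was -0.44 (adjusted p = 0.098 by limma). Rpl23a (-0.29) was also among the members with the smallest unadjusted p-values, while Rpl15 (-0.08) and Rpl7l1 (-0.07) changed least of the members that were lower.

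Whether the genotype effect differed between the lines was tested as an interaction, the effect in the eKO line minus that in the Olfr78-GFP line. Its median over the members was 0.31 beside 0.01 over all genes, and 82 of 85 members had a positive value, but limma, edgeR and DESeq2 called 0 members, where 0.0122% of all genes were called as higher by limma, and 2 members, Rps3a2 and Rps13, had an unadjusted p under 0.05. The median was -0.03 without eKO crypts 1. Without the library labelled eKO crypts 2 it was 0.66 with 5 members called, Rpl21, Rpl6, Rps13, Rps3a1 and Rps6. For Rpl35a the difference was -0.18 (SE 0.15, adjusted p = 0.672 by limma).

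The 2 tables were scaled separately but in the same way, and levels of the eCtrl and eKO crypts are set against the WT crypts as a description. On the log2 scale and relative to the WT crypts, Rpl35a lay within 0.06 of the median of the other members in each KO crypts library, 0.28 below it in eCtrl crypts 1, 0.86 below it in eKO crypts 1, 0.41 below it in the library labelled eKO crypts 2 and 0.98 below it in KO pool 1. In eKO crypts 1 the median member was 0.44 above the WT crypts while Rpl35a was at 1763 CP20M, below all 5 crypts titled as controls.

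**Figure D4:**
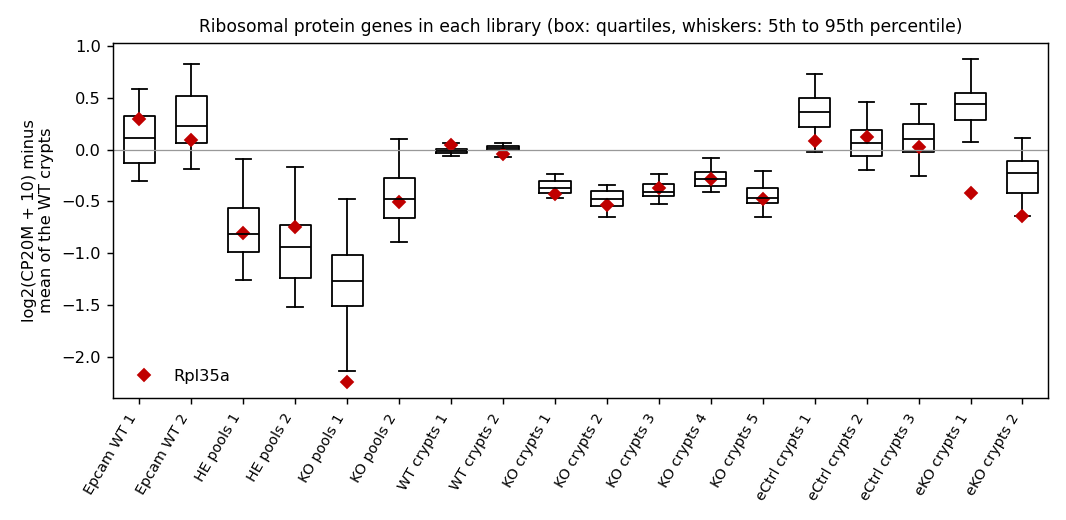
Each member's log2(CP20M + 10) minus its mean in the 2 WT crypts (vertical axis) by library, with boxes at the quartiles, whiskers at the 5th and 95th percentile of the members and Rpl35a as a red diamond. The diamonds sit inside the boxes or whiskers in the KO crypts and far below the box in eKO crypts 1 and KO pool 1.

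The gene lies at chr16:33056453-33060189 on the plus strand of GRCm38 (ENSMUSG00000060636), and the antisense span of Gm17106 covers it, at 37 to 77 CP20M in the crypts. Rows named as pseudogenes of Rpl35a summed to 38 to 93 CP20M in crypts of the Olfr78-GFP line and 138 to 274 in those of the other line, where they came to 5.77% to 15.5% of Rpl35a. Whether reads moved between the gene and these rows was not tested. Across the 12 crypt libraries, after each group's mean was taken out, the genes most like Rpl35a were Dhrs1 (Pearson r = 0.968), Ict1os (0.961), Ndufb3 (0.957), Gm43191 (0.954) and Kcne3 (0.948), while the other members had a median r of 0.651. With only each line's mean taken out, the 5 genes most like it were others, led by Gm20490 (0.872) and Tmem238 (0.853). The libraries share their depth and scale in each of these correlations, which are given as a description. In the 12 crypt libraries Dhrs1, a dehydrogenase, ranged from 302 to 534 CP20M.

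The Epcam WT samples and the WT crypts are both of WT epithelium, but differ in preparation, RNA kit and depth, which cannot be told apart. The members' median log2 fold change was 0.14 beside -0.26 over all 15434 genes, and 21 members rose, where 6.07% of all genes did, and 2 fell, Rpl10a (-0.49) and Rpl15 (-0.42), where 18.5% did. Median-of-ratios rescaling moved the median of all genes to 0.00, and then 45 members rose and 0 fell (also 0 by edgeR and DESeq2). The highest folds were those of copies that the annotation gives as processed pseudogenes with 1 exon. Rps3a3 stood at 40 and 50 CP20M in WT crypts and 358 and 607 in Epcam WT samples, a log2 fold change of 3.12 (SE 0.34, adjusted p = 0.00105 by limma), and Rps3a2, Rpl6l and Rps12l1 rose by 2.41, 1.98 and 1.69. Of the rows named as ribosomal protein pseudogenes all 91 tested were higher in the Epcam WT samples (median 2.21, 80 called). They took 0.134% and 0.179% of reads there and 0.0226% to 0.0584% in crypts. Colonocyte markers summed to 9669 to 12784 CP20M in Epcam WT samples and 25058 to 27550 in WT crypts, leukocyte markers to 42 to 63 and 470 to 577, and proliferation markers to 25716 to 26749 and 16753 to 16933. All 4 colonocyte and all 4 epithelial markers and 3 of 4 goblet cell markers fell, 4 of 7 proliferation markers rose, and their part in these values was not tested. Among members outside these copies Rpl39 (0.70), Rpl22 (0.68), Rpl27a (0.60) and Rps25 (0.55) rose most clearly. Rpl35a had a log2 fold change of 0.19 (adjusted p = 0.282 by limma), and 0.46 (adjusted p = 0.025 by limma) after that rescaling. With no filter on low values 0 members were called by limma, without a trend of the spread 4, and without WT crypts 1 and WT crypts 2 the members called were 8 and 5.

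Paralogs with a partner among the members were compared per kilobase. Length was the median over a gene's annotated coding transcripts, or over all its transcripts where none codes, whichever of them the cells used. Per kilobase, Rpl22l1 came to 144% to 235% of Rpl22, which is known to hold down the expression of its paralog. This order rested on the lengths, 538.5 bases for Rpl22l1 and 2048 for Rpl22. Before division by length, Rpl22 had more CP20M than Rpl22l1 in every library. The level of Rpl22l1 did not fall beyond the threshold in HE pools (1618 and 1911 against 1266 and 1107 CP20M, log2 fold change -0.57, adjusted p = 0.0846 by limma). Rps27l came to 28.0% of Rps27 in Epcam WT samples, 10.9% in HE pools, 20.1% in KO pools and 22.7% to 27.2% in crypts. Rpl7l1, known for a part in making the large subunit, came to 3.75% to 6.41% of Rpl7. Rpl3l, Rpl10l and Rpl39l came to at most 0.126% of their partners.

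Rps4l, an autosomal copy of the X-linked Rps4x, varied widely between mice. It stood at 182 and 41 CP20M in WT crypts and 152, 198, 171, 169 and 163 in KO crypts, and at 11, 302 and 384 in eCtrl crypts, 11 in eKO crypts 1 and 335 in the library labelled eKO crypts 2. The libraries at 11 were the same 2 with the highest share of ribosomal protein reads. In KO against WT crypts the log2 fold change was 0.86 (SE 0.36, adjusted p = 0.157 by limma), and 1.82 (adjusted p = 0.00734 by limma) without WT crypts 1. Rps4x stood at 9262 and 9903 in WT crypts and 6400 to 7538 in KO crypts, and fell by 0.47.

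**Figure D5:**
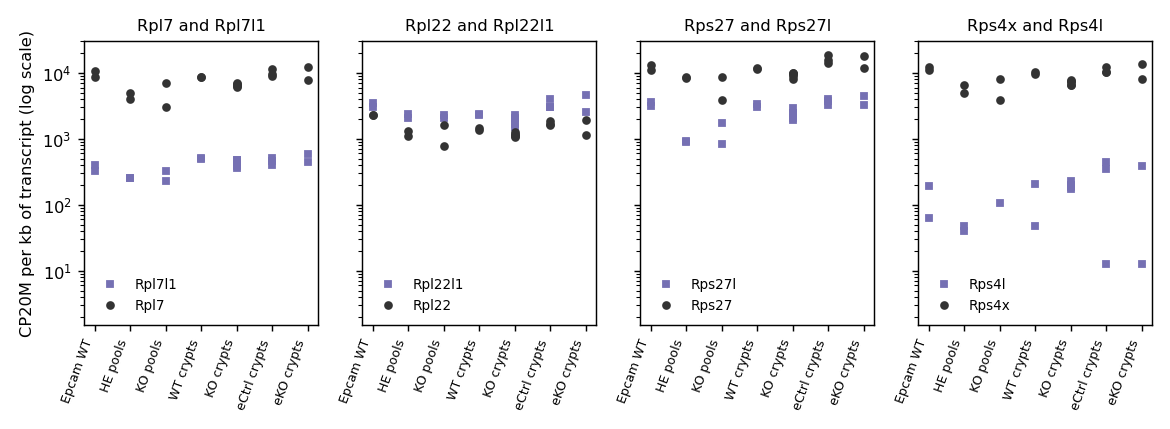
CP20M per kilobase of transcript (vertical axis, log scale) of 4 paralogs (squares) and their partners (circles) in every library of the 7 groups, where KO pool 1, at 0 for Rps4l, is not drawn. Rpl22l1 sits above Rpl22, Rps27l drops away from Rps27 in the HE pools, and Rps4l spreads over a wide range within the WT, eCtrl and eKO crypts.

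Members with and without the pyrimidine run near the annotated transcript start were set side by side, with no test. A member without a run there may still carry the TOP motif at the start used in these cells, so the split is not one by motif. In HE pools against Epcam WT samples the 29 with a run had a median log2 fold change of -1.04 (27 called lower) and the 31 tested without one -0.96 (28 called lower), and in KO against WT crypts the medians were -0.38 and -0.39 (23 called lower in each). The members with a run include Rpl35a, Rps6, Rps27l and Rpl22l1, whose starts are printed above, and those without include Rplp0 and Rpl13, which fell in both comparisons.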

How the data were processed

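RNA of 18 libraries was made with Ovation Solo RNAseq kits and sequenced in pairs on a NovaSeq. The authors used STAR to map reads to GRCm38 (mm10) and HTSeq to count them on Ensembl genes, and the versions of STAR and HTSeq are not given in the sources used here. The values the authors deposited for sorted cells are a signal, reads per gene scaled to 20000000 and rounded up (CP20M), and those for crypts a score made in the same way. A read was worth 1.82 to 3.24 CP20M in crypts and 8.94 to 37.5 in sorted cells, and whole reads were recovered for 99.92% to 99.996% of the values of a library.

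Groups follow the sample titles. Members, gene lists and tests were chosen with earlier results of these data known. Named members are Rpl35a, Rpl13, Rplp0, Rplp1, Rplp2, Rpsa, the paralogs with their partners, members failing the filter, up to 5 members per direction with the smallest p-values among those called (3 where none was), the 3 furthest from the members' median on each side and the 3 highest and lowest per length, and of other lists up to 4 called genes. Rpl34, Rpl6, Rpl36a, Rps3a1, Rps6 and Rps25 were named after their values were seen. Some genes that the rule names are not reported here.

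Genes with at least 40 CP20M in at least 2 libraries compared (more than 40 in all 4 pools for KO against HE pools) were tested with limma 3.58.1 (R 4.3.3), with a trend of the spread, on log2(CP20M + 10), and p-values were adjusted by Benjamini-Hochberg. The design assumed scaled values and was kept. edgeR 4.0.16 (quasi-likelihood) and DESeq2 1.42.0 were run on the recovered reads as alternatives, beside other pseudocounts (1 and 40), filters, scalings, no trend, replicate numbers as a block and leaving out each library. Where the labels name no separate animals, p-values measure only the spread between samples. The tests were tried on simulated reads with planted changes larger than the members' median shifts between genotypes in crypts. That trial does not show how well shifts of that size are found. Sequences are from RefSeq, assembly GRCm38.p6.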

Additional observations from a re-analysis of the deposited data

Results flagged for a closer look

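Values of the named members and the members' share in the 5 KO crypts, 42 in all, were searched for a library far from the rest of its group, and 2 were found, where chance gives about 1 in 20. Rpl27, a large subunit member, stood at 1243 CP20M in KO crypts 4, with the nearest other KO library at 1023, a gap of 0.772 of the group's range (critical value 0.71). Rpl39l stood at 14 CP20M, which is 5 reads, in KO crypts 1 and at 0 in the other 4.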

How the results depend on the processing

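Depth limited KO pool 1 most, where 1 read was worth 37.5 CP20M. Of the members called, the 75 in HE pools against Epcam WT samples, the 65 in KO against WT crypts and the 23 in Epcam WT samples against WT crypts kept their sign under all of the 14, 17 and 14 alternatives run for each. The causes of the changes below were not tested. With each library left out in turn, the members called ranged from 41 to 77 for HE pools against Epcam WT samples, from 0 to 1 for KO against HE pools, from 0 to 67 for KO against WT crypts, from 0 to 63 over both lines, from 0 to 5 for the difference between the lines and from 5 to 34 for Epcam WT samples against WT crypts. In the same order, the medians ranged from -1.10 to -0.96, -0.34 to 0.40, -0.43 to -0.38, -0.42 to -0.18, -0.035 to 0.66 and 0.12 to 0.23, and for eKO against eCtrl crypts from -0.44 to 0.25. Again in that order, Rpl35a ranged from -1.06 to -0.87, -1.47 to 0.26, -0.46 to -0.38, -0.54 to -0.44, -0.30 to -0.07 and 0.10 to 0.29, and from -0.72 to -0.49 in eKO against eCtrl crypts.

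Without a trend of the spread the members called were 5 for HE pools against Epcam WT samples (Rpl35a -0.97, not called), 7 for KO against WT crypts (Rpl35a -0.42, not called) and 4 for Epcam WT samples against WT crypts. With no filter they were 37 for KO against WT crypts (Rpl35a -0.42, not called) and 0 for Epcam WT samples against WT crypts. DESeq2 called 1 member over both lines, Rpl35a (-0.54). For Epcam WT samples against WT crypts, median-of-ratios rescaling, edgeR and DESeq2 called 45, 47 and 42 members with medians of 0.41, 0.39 and 0.40, and Rpl35a was called under the rescaling (0.46) and by edgeR (0.44). At the thresholds of the methods, the members over both lines went from 0 to 2 without eKO crypts 1, those of KO against WT crypts ranged from 1 to 3, and those of the difference between the lines reached 61 without the library labelled eKO crypts 2.

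Same-numbered libraries of a comparison had correlated deviations from the group means only between eKO and eCtrl crypts (0.605 and 0.341), and otherwise between -0.244 and 0.061. The main fits did not pair samples by number, also for eKO and eCtrl crypts, where what same-numbered libraries share was not tested. With the replicate number as a block, the members called were 76 for HE pools against Epcam WT samples, 75 for KO against WT crypts, 24 for Epcam WT samples against WT crypts and 0 in the other comparisons. For eKO against eCtrl crypts the block moved the genes with an unadjusted p under 0.05 by limma from 127 to 497. The members' median there went from -0.10 to -0.14. With the numbers crossed between KO and HE pools, an alternative added after seeing the data, the members called were 0.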
